A study of Mus musculus with 8 samples.

Results

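Broad stretches of RNA that carried full-length ALKBH5 and no peak of a truncated ALKBH5 numbered 667, of 43029 merged regions in all. ALKBH5 removes the N6-methyladenosine mark from RNA, and eCLIP maps its contacts: UV light fixes the protein to RNA that it touches, the protein is pulled down with an antibody, and the attached RNA is sequenced. The study set E14TG2a mouse embryonic stem cells with genotype Alkbh5 del-cIDR, in which an intrinsically disordered region of the protein is deleted (del-cIDR below), against cells of the same line with genotype WT, whose ALKBH5 is full-length. Both were grown with LIF, PD0325901 and CHIR99021, and RNA came from nuclei. Of the 8 samples, 4 were immunoprecipitates, 2 replicates per genotype, and their 4 peak lists were used; the inputs were not analysed here. Separate cultures are not stated for the replicates, nor is the number of clones behind the del-cIDR cells, so the spread between replicates may be technical. Below, replicate 1 and replicate 2 with no genotype stand for the full-length lists.

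A peak is a stretch where the authors' peak caller found more reads than its background. Peaks of the 4 lists were merged where they shared at least 1 bp. A region was kept where both full-length lists and neither del-cIDR list held a peak and the merged width was 2000 bp or more. The regions were thus selected on the presence and absence of peaks and on merged width, and all values of the same peaks are given as a description, with no test. Without the width limit 7549 regions, 17.5% of all, had both full-length lists alone. The limit of 2000 bp was passed by 2.11% of all merged regions and by 8.84% of these full-length-only regions, and both conditions together by 1.55%. Of the 910 merged regions of 2000 bp or more, 73.3% were full-length-only. Another 115 held both full-length lists and 1 del-cIDR list, and 89 held all 4 lists. The other 39 were 32 of both del-cIDR lists alone, 4 of a single full-length list and 3 of 1 full-length and both del-cIDR lists.

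Disordered regions are protein segments without a fixed fold, and in many RNA-binding proteins they add to or limit contacts with RNA and with other proteins. N6-methyladenosine is known to be frequent in long internal exons and in last exons near the stop codon. Among mouse genes known for very long exons, RefSeq names place Ttn (titin, a giant muscle protein) on chromosome 2, Ahnak (a giant scaffold protein) on chromosome 19, Fat1 (an atypical cadherin) on chromosome 8, and Tet1 and Tet2 (DNA demethylases) on chromosomes 10 and 3. The positions below are in GRCm39, and the gene annotation at hand is of the older build GRCm38.p6, so no region was placed in a gene or exon and no sequence is shown. Whether the regions lie in any of these genes was not analysed here, nor were stem-cell markers. The peaks carry no strand, and in bulk material RNA present in fewer cells and less RNA per cell cannot be told apart.

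Wide peaks were rare in the del-cIDR lists. They held 16 and 26 peaks of 2000 bp or more among 17584 and 18841, and the widest were 3319 and 3776 bp. The full-length lists held 825 and 361 among 19892 and 16636, and the widest were 19143 and 19070 bp. The groups did not overlap, and the full-length replicates differed from each other by more than the del-cIDR replicates did. These counts include the peaks of the broad regions, which the rule picked by width and by absence from the del-cIDR lists. Of the 667 regions, 636 held such a peak in replicate 1 and 249 in replicate 2. The contrast is thus largely made of the selected regions and is no separate result.

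The regions were mostly a few kilobases wide, with a small number of far longer ones. Their width had a median of 2902 bp, with quartiles of 2363 and 3929 bp and a range of 2001 to 19143 bp. From 2000 to under 3000 bp there were 357 regions, from 3000 to under 5000 bp 230, from 5000 to under 10000 bp 74, and at 10000 bp or more 6. Together they covered 2.27 Mb. They were 8.84% of the full-length-only regions by number and 34.0% by covered length. They held 18.4% of the bases under peaks in full-length replicate 1 and 23.8% of those in replicate 2. The limit cuts through a continuous range. The 3 narrowest regions inside it were 2001, 2002 and 2004 bp wide, on chromosomes 1, X and 12. The widest full-length-only regions just outside it were 1999, 1997 and 1997 bp wide, on chromosomes 13, 3 and 8.

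The number of regions rested largely on 1 library. With the peaks of replicate 1 left out, 260 regions met the rule in replicate 2 alone, and with replicate 2 left out, 642 met it in replicate 1 alone. With del-cIDR replicate 1 or 2 left out there were 717 and 730. Replicate 1 had 19892 peaks and 12.3 Mb under peaks, and replicate 2 had 16636 peaks and 7.63 Mb. Read numbers are unknown, so the part of sequencing depth in this difference was not tested.

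With all peaks used, most regions were 1 unbroken peak in replicate 1 and a run of shorter peaks in replicate 2. A single peak was present in 625 regions (93.7%) in replicate 1 and in 207 (31.0%) in replicate 2. The mean was 1.07 and 2.39 peaks per region, and the most was 3 and 10. A single peak in each replicate was found in 200 regions, 1 peak in replicate 1 with several in replicate 2 in 425, several in both in 35, and several in replicate 1 with 1 in replicate 2 in 7. The share with a single peak in each, 29.99%, was 59.05% with peaks under 4-fold enrichment dropped and 65.2% where both lists had to hold a peak of 2000 bp, so the break in replicate 2 was not the majority pattern under those settings. A peak of 2000 bp or more stood in both lists in 247 regions, in replicate 1 only in 389, in replicate 2 only in 2, and in neither in 29, where only the merged extent passed the limit. The 930 gaps between peaks inside regions in replicate 2 had a median of 121.5 bp, with quartiles of 50.2 and 254 bp. The 44 gaps in replicate 1 had a median of 99.5 bp.

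Regions broken in replicate 2 were nearly as wide as those with 1 peak in each replicate, and their peaks were weaker. A single peak in each does not mean that both were broad. On chromosome 10 from 58105277 to 58107639, 2363 bp wide, the peak of replicate 2 was 288 bp. The median width was 2938 bp with 1 peak in each replicate and 2865 bp with 1 peak in replicate 1 and several in replicate 2. The fold enrichment, the authors' own value for each peak, was taken as the highest of a region's peaks in a list. Its median was 11.1 in replicate 1 and 7.71 in replicate 2 for the 200 regions with 1 peak in each. For the 425 regions broken in replicate 2 it was 7.04 and 5.51. The region broken most often lay on chromosome 4 from 155297188 to 155304538, with 1 peak in replicate 1, 10 in replicate 2, and 3.49-fold and 4.74-fold enrichment. Next were regions on chromosome 2 from 179605023 to 179609955 (2 and 8 peaks) and on chromosome 5 from 45880066 to 45884961 (1 and 8 peaks). A region on chromosome 17 from 33565594 to 33570058 had 2 and 7 peaks, and one on chromosome 8 from 69816594 to 69826498 had 1 and 7.

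**Figure D1:**
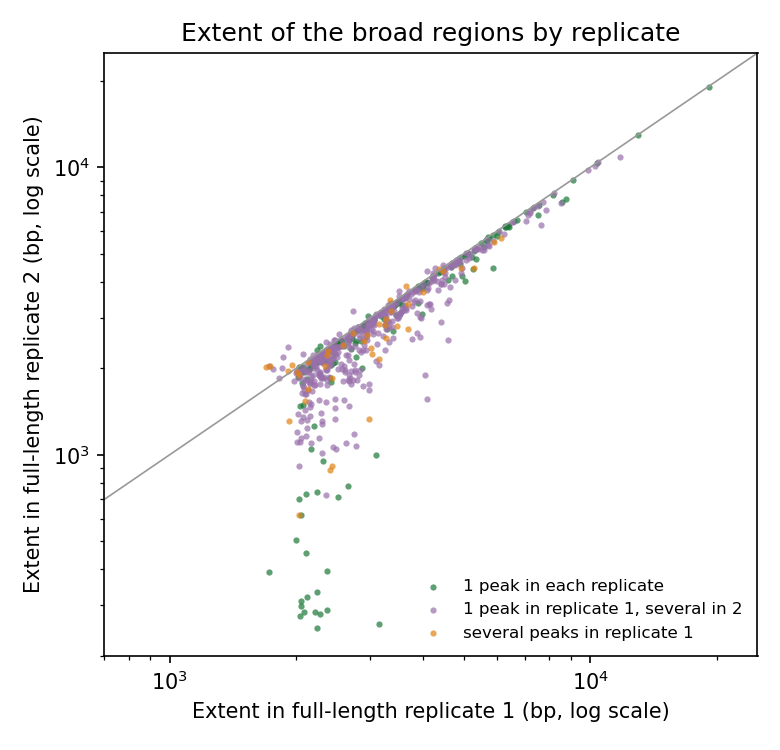
Each point is 1 of the 667 regions, placed by its extent from the first to the last base under a peak in full-length replicate 1 (horizontal, bp, log scale) and replicate 2 (vertical, bp, log scale), with the line of equal extents. Most points lie on or just under the line, and a tail of regions, many with 1 peak in each replicate, falls far below it, where replicate 2 held only a short peak.

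The outer limits of the regions were close between replicates, although the inside was not covered equally. The median extent was 2894 bp in replicate 1 and 2563 bp in replicate 2. Starts differed by a median of 80.0 bp and ends by 72.0 bp. Both ends lay within 100 bp in 245 regions (36.7%) and within 500 bp in 546 (81.9%), and both lay within 10 bp in 1. Replicate 1 had the outer start in 87.7% and the outer end in 86.2% of regions, and in 78.1% the extent of replicate 2 lay within that of replicate 1. The Jaccard index inside a region, the bases under peaks of both replicates over those of either, had a mean of 0.759 and a median of 0.821, with quartiles of 0.647 and 0.935. It ran up to 0.998 and was lowest, 0.0449, in the region on chromosome 17 from 47239225 to 47241251. There, peaks of 1727 and 391 bp shared a short overlap. A merged width of 2000 bp thus did not always stand for a stretch that both replicates covered.

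Where both ends were close, the overhang of replicate 1 sat on 1 side of the region, and neighbouring regions had it on the same side. The difference that set the side, 30 bp between the overhangs at start and end, was chosen after the values were seen. Of the 245 regions with both ends within 100 bp, 96 had the larger overhang at the start, 81 at the end and 68 at neither. In the first kind replicate 1 began a median of 68.0 bp before replicate 2 and ran past it by 8 bp. In the second kind it began 5 bp before and ran past by 63.0 bp. The narrowest peaks of the lists, 297 and 243 bp, differed by 54 bp, and the part of this in the overhang was not tested.

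Neighbours on a chromosome with a gap of up to 100 kb formed 29 pairs of such regions, and all 29 had the overhang on the same side. Outside the largest group on chromosome 2 these were 16 of 16 pairs. From 100 kb to 1 Mb apart it was 12 of 15 pairs, and beyond 1 Mb 60 of 113 (53.1%). All full-length-only regions of any width, to which the broad ones belong, gave 89.7% of 1121 pairs up to 10 kb, 75.6% of 525 pairs from 10 to 100 kb, 49.0% of 737 pairs from 100 kb to 1 Mb and 50.4% of 760 pairs beyond. The same side was thus frequent in nearby regions, narrower ones included. The lists give no strand, so the side could not be set against the direction of the RNA. With the side set at 20 bp, 34 of 36 pairs agreed, at 50 bp 15 of 15, and with both ends within 200 bp 42 of 45.

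**Figure D2:**
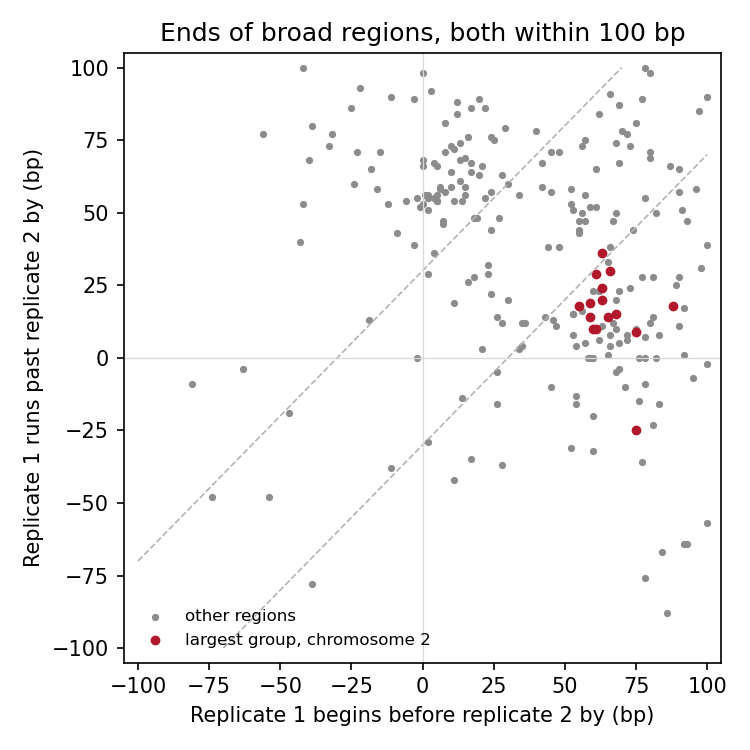
Points are the 245 regions whose ends both lie within 100 bp, by how far replicate 1 begins before replicate 2 (horizontal, bp) and runs past it (vertical, bp); dashed lines mark a difference of 30 bp between the overhangs. Points gather at about 60 to 70 bp on one axis and near 0 on the other, and the 15 regions of the largest group, drawn in red, lie together, 14 of them past the line on the start side.

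Enrichment was higher in broad than in narrower full-length-only regions, and was higher in the wider of the broad ones. The highest fold enrichment of a region had a median of 7.54 in replicate 1 (quartiles 5.14 and 12.1) and 5.70 in replicate 2 (quartiles 4.30 and 8.53). For the 6882 full-length-only regions under 2000 bp the medians were 4.29 and 3.86. In the 80 regions of 5000 bp or more the medians were 15.49 and 11.03, in the 230 of 3000 to under 5000 bp 8.52 and 6.28, and in the 357 of 2000 to under 3000 bp 6.23 and 5.00. Below the limit there was no such order, with 4.749 and 3.902 from 1000 to under 2000 bp, 3.96 and 3.57 from 500 to under 1000 bp, and 4.40 and 4.09 under 500 bp. The highest value of a wider region is taken over more bases and peaks, and the part of this in the order by width was not tested. Across regions the fold enrichment of the replicates had a Spearman rho of 0.820 (n = 667 regions of the same 2 libraries), and width and fold had 0.391 in replicate 1 and 0.410 in replicate 2. Replicate 1 had the higher fold in 78.9% of the broad regions and in 64.9% of the narrower ones.

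**Figure D3:**
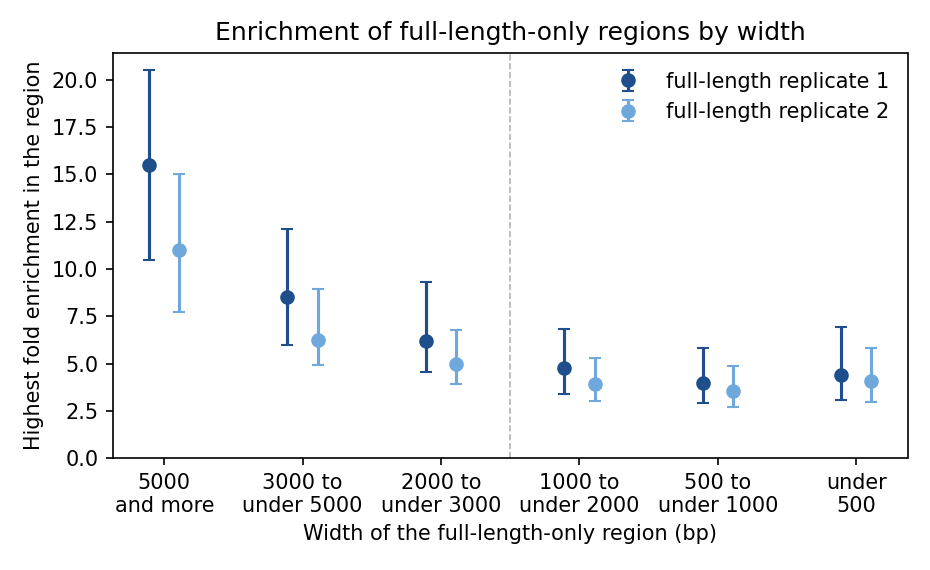
Median of the highest fold enrichment (vertical, authors' fold over the background of the peak caller) of full-length-only regions by width in bp (horizontal) for each full-length replicate; bars run from the lower to the upper quartile over regions, and the dashed line is the limit of 2000 bp. Medians are 15.49 and 11.03 at 5000 bp or more and 4.749 or less below the limit.

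The broad regions were frequent among the best ranked peaks of replicate 1, and only somewhat above their share of all peaks in replicate 2. Each list was sorted by −log10 q, which grows as a peak becomes less likely under the background of the peak caller. Peaks of broad regions were 22 of the first 100 peaks in replicate 1 and 14 of the first 100 in replicate 2, against 3.57% and 9.60% of all peaks of these lists. Among the next 400 peaks they were 77 and 60. Among the 3000 peaks that follow the first 2000 they were 7.67% and 11.1%. Past rank 10000 they were 0.475% and 7.97%. The share thus fell off far more along the list of replicate 1 than along that of replicate 2, which counts several peaks in most regions.

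The strongest position inside a region had no fixed place. With regions cut into 3 equal parts along the chromosome, the summit of the best peak lay in the left, middle and right part in 31.9%, 37.9% and 30.1% of regions in replicate 1, and in 31.6%, 35.5% and 32.8% in replicate 2. The best summits of the replicates were a median of 93.0 bp apart and within 100 bp in 345 regions (51.7%). In 19.6% they were over 1000 bp apart. In narrower full-length-only regions they were a median of 51.0 bp apart and within 100 bp in 72.5%.

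The widest region lay on chromosome 2 from 76566146 to 76585288 and was 1 peak of 19143 bp in replicate 1 and of 19070 bp in replicate 2. Its enrichment was 36.4-fold and 22.1-fold, and its best summits were 1 bp apart. Its position was thus nearly identical between replicates, while its rank by −log10 q was 48 in replicate 1 and 162 in replicate 2. Another wide region differed more in position: on chromosome 15 from 76054971 to 76066720 a peak of 11750 bp in replicate 1 met 3 peaks in replicate 2, the widest of 5181 bp, with 10.3-fold and 4.39-fold enrichment and ends 799 bp apart.

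The other 7 described of the 10 widest had 1 peak in replicate 1 and 1 to 7 in replicate 2. On chromosome 1 from 63341829 to 63352293 the enrichment was 20.6-fold and 11.97-fold. On chromosome 2 from 120526233 to 120536604 it was 36.8-fold and 17.2-fold, with equal starts and ends 53 bp apart. On chromosome 18 from 34445094 to 34455367 it was 19.6-fold and 13.3-fold. All of these were 10000 bp wide or more. The region on chromosome 8 from 69816594 to 69826498 was 9905 bp wide, and that on chromosome 4 from 34802925 to 34812039 was 9115 bp wide with 35.4-fold and 24.4-fold enrichment. On chromosome 16 from 44035833 to 44044607 replicate 2 stopped 1001 bp before replicate 1, and on chromosome 2 from 121129881 to 121138477 it stopped 1006 bp before. This last region was the weakest of the 10 by rank, 2141 in replicate 1 and 7390 in replicate 2.

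The 10 best ranked regions were not the widest, since only the region on chromosome 4 from 34802925 was in both sets. They measured 2289 to 9115 bp. The best, on chromosome 19 from 8979069 to 8984821, lay 175 bp from a region of all 4 lists. The nearest del-cIDR peak itself was 11326 bp away, so the near part of that region held full-length peaks only. On chromosome 3 from 133169265 to 133173928 the best summits were 3 bp apart, and on chromosome 10 from 62673675 to 62676148 the ends were equal. A pair on chromosome 8, from 45403246 to 45406805 and from 45475860 to 45480197, ranked 36 and 33 in replicate 1 and 85 and 89 in replicate 2. These were also the regions farthest from any del-cIDR peak, at 1016547 and 943155 bp. Chromosome 4 gave 3 more, from 145263262 to 145266814, from 146621989 to 146624277 and from 147474681 to 147477963, with 10.2-fold to 12.2-fold enrichment in replicate 1 and 7.26-fold to 10.7-fold in replicate 2. On chromosome 6 from 85596436 to 85600450 it was 26.8-fold and 21.5-fold.

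Regions were present on all numbered chromosomes and on X, and none was found on Y, on the mitochondrial chromosome or on unplaced sequences. Chromosome 2 held 77, chromosome 7 held 64 and chromosome 4 held 47, while chromosome 14 held 10 and chromosome 19 held 14. Over the 20 chromosomes the numbers of broad and narrower full-length-only regions had a Spearman rho of 0.784. The numbers of broad regions and of protein-coding genes had 0.770. Both describe chromosomes that differ in length and gene number, and the 2 relations cannot be told apart here. The share of full-length-only regions that were broad ran from 5.18% on chromosome 14 (10 of 193) to 13.0% on chromosome 7 (64 of 491). It was 12.4% on chromosome 17 and 11.9% on chromosome 2. Chromosomes 4 and 13, with 655 and 465 full-length-only regions, had only 7.18% and 6.45% broad.

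Many regions lay close to each other. Another broad region was found within 1 kb of 77 regions (11.5%), within 10 kb of 170 (25.5%) and within 100 kb of 291 (43.6%). The median distance to the next one was 220 kb. Of the 6882 narrower full-length-only regions, 4.13%, 13.1% and 29.9% had a broad region within 1, 10 and 100 kb. Distances among the narrower regions themselves are not given here, so closeness cannot be called particular to the broad ones. Whether close neighbours are 1 stretch split by the peak caller was not tested. With regions chained at gaps of 100 kb or less there were 487 groups, 376 of them a single region, 82 pairs, 12 of 3 and 17 of 4 or more. In the spans of these 17 groups the del-cIDR lists had 16 and 15 peaks and the full-length lists 315 and 403, and 11 of the 17 held no del-cIDR peak. These full-length counts include the peaks inside the broad regions, which the rule requires. The rule also keeps del-cIDR peaks out of the broad regions, though not out of the gaps between them. The contrast over whole spans was thus partly set by the rule.

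The largest group held 15 regions on chromosome 2 from 76538239 to 76642074, a span of 103836 bp of which they covered 63.8%. They were 2029 to 19143 bp wide. In replicate 1 each was 1 peak, and in replicate 2 they held 21 peaks. The del-cIDR lists had 1 and 0 peaks in the whole span and the full-length lists 34 and 41, so many narrower full-length peaks lay between the broad regions. The single del-cIDR peak was 349 bp wide with 4.04-fold enrichment and fell between broad regions, in full-length peaks of 1657 and 1578 bp with 32.1-fold and 11.99-fold enrichment. All 15 had both ends within 100 bp, and in all of them the start differed by more than the end. The start in replicate 1 minus that in replicate 2 ran from -88 to -55 bp, so replicate 1 began first in each, and the same difference of the ends ran from -25 to 36 bp. By the limit of 30 bp 14 of the 15 had a side, the start.

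**Figure D4:**
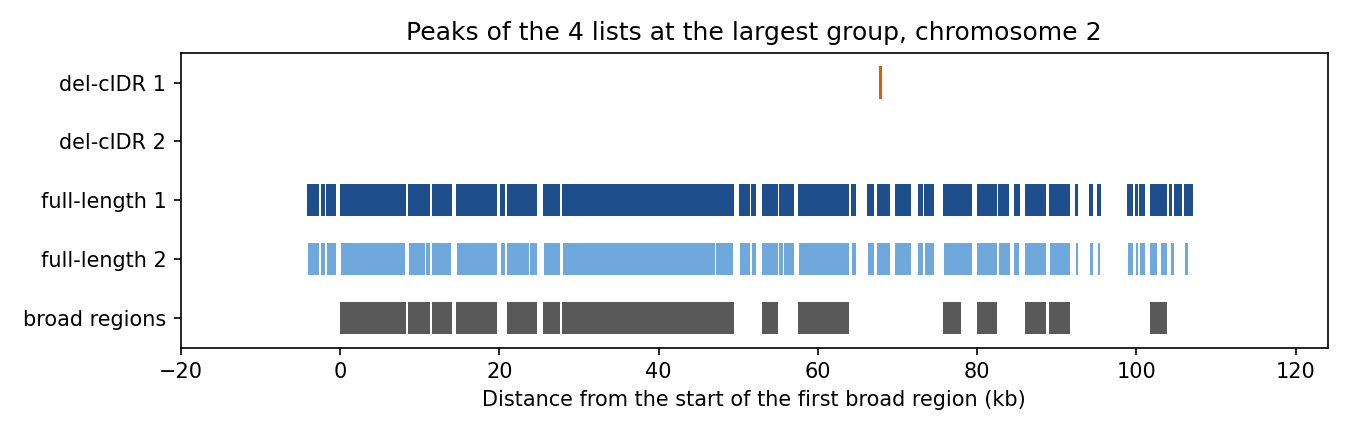
Every peak of the 4 lists (rows) around the largest group, by distance in kb from the start of its first broad region (horizontal); the lowest row shows the 15 merged broad regions. Both full-length rows carry the same pattern of blocks and gaps, while del-cIDR replicate 1 has 1 short peak and del-cIDR replicate 2 has none.

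Chromosome 18 from 37789074 to 37899694 held 9 regions, which covered 27.2% of the span. Their enrichment was modest, 3.91-fold to 11.4-fold in replicate 1 and 3.33-fold to 6.90-fold in replicate 2. Their ends were also uneven, and the start of 1 region differed by 1907 bp between replicates. Chromosome 8 from 69737285 to 69843430 held 7 regions with 4.80-fold to 21.8-fold and 4.26-fold to 11.1-fold enrichment. No del-cIDR peak lay in either span.

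Another 4 groups held 5 regions each, and the full-length counts given for their spans include the peaks of those regions. On chromosome 3 from 22135460 to 22215571 the span had 28 and 39 full-length peaks and no del-cIDR peak, and in 4 of the 5 regions replicate 2 had the higher enrichment, as in the region from 22210453 with 4.84-fold and 8.25-fold. On chromosome 7 from 27552956 to 27689827 there were 23 and 17 full-length peaks and no del-cIDR peak. On chromosome 16 from 97743694 to 97867728 there were 8 and 17, again with no del-cIDR peak. Of these, 5 and 16 were peaks of the broad regions themselves. On chromosome 17 from 22504820 to 22685390 the del-cIDR lists had 2 and 0 peaks and the full-length lists 20 and 29.

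Outside the broad regions the del-cIDR lists had fewer peaks nearby than the full-length lists. Against their own level farther away, the del-cIDR lists were low only close to the regions. From 5000 to 10000 bp away they had 19.9 and 18.7 summits per Mb, against 13.6 and 15.2 from 50000 to 100000 bp. In the first 1000 bp they had 5.58 and 6.37. Within 10 kb of a broad region and outside all of them lay 192 and 189 del-cIDR summits and 1522 and 1294 full-length summits. The means were 190.5 ± 2.12 in del-cIDR and 1408 ± 161 in full-length lists (SD, n = 2 each). The difference, full-length minus del-cIDR, was 1217.5 summits, a 7.39-fold ratio of full-length over del-cIDR (two-sided exact permutation p = 0.333, the smallest p that 2 lists against 2 can give). The groups did not overlap and the difference was larger than the spread between replicates, but no p under 0.05 is possible. Most of these full-length summits lay in narrower full-length-only regions, which the same condition on presence and absence picks out. With all bases of full-length-only regions left out, a setting chosen after the values were seen, 192 and 189 del-cIDR summits and 622 and 260 full-length summits remained. No del-cIDR peak lies in a full-length-only region, so this setting can lower the full-length counts alone. The means were then 190.5 ± 2.12 in del-cIDR and 441 ± 256 in full-length lists (SD, n = 2 each), a 2.31-fold ratio. The difference of 250.5 was smaller than the SD between the full-length replicates (two-sided exact permutation p = 0.333). With full-length replicate 1 left out and the regions chosen anew, the difference was 682 in place of 1217.5.

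Del-cIDR summits were scarcest right beside the broad regions. A del-cIDR peak that reached 1 bp into a region excluded it, and the narrowest del-cIDR peaks were 300 and 301 bp wide. Part of the low density beside the edges was thus set by the rule, for broad and narrower regions alike. In the first 1 kb outside a broad region there were 5.58 and 6.37 del-cIDR summits and 304 and 232 full-length summits per Mb. From 10 to 20 kb away the del-cIDR lists had 19.9 and 21.7 and the full-length lists 56.4 and 46.8. From 50 to 100 kb away the del-cIDR lists had 13.6 and 15.2 and the full-length lists 20.3 and 15.4. Around narrower full-length-only regions the first 1 kb held 23.1 and 26.5 del-cIDR summits per Mb, about 4 times as many, and at 10 to 20 kb 20.03 and 21.8, much as around the broad ones. With all bases of full-length-only regions left out the first 1 kb gave 6.42 and 7.34 del-cIDR summits per Mb around broad and 23.5 and 27.0 around narrower regions. The full-length lists then had 147 and 37.6 per Mb in the first 1 kb around broad regions. From 10 to 20 kb the del-cIDR lists had 20.3 and 22.1 and the full-length lists 27.2 and 13.6, and from 50 to 100 kb the del-cIDR lists had 13.7 and 15.3 and the full-length lists 12.1 and 6.14. Without those bases the higher density in both full-length lists held up to 5 kb. Replicate 2 was below both del-cIDR lists from 5 kb on, and replicate 1 was below both past 50 kb. Leaving out those bases removes full-length summits and no del-cIDR summit, so the lower values follow at least in part from the setting. Broad and narrower regions share libraries and lie partly next to each other, and the difference in del-cIDR density between them was not tested.

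**Figure D5:**
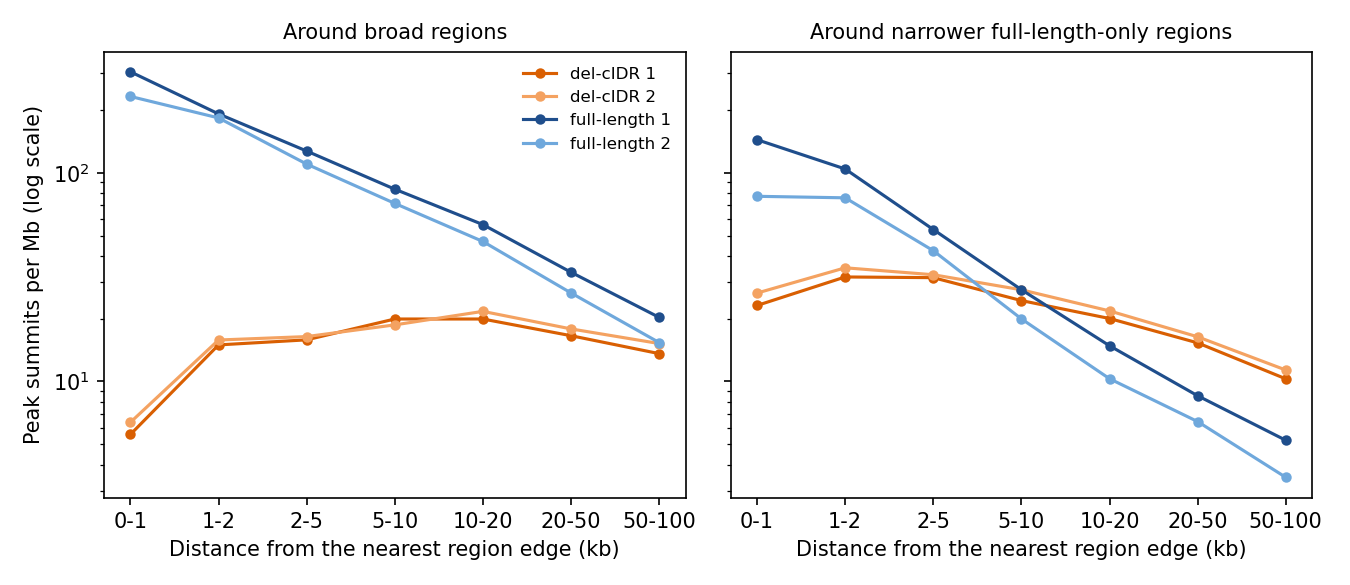
Peak summits per Mb (vertical, log scale) of each list by distance in kb from the nearest region edge (horizontal), around the 667 broad regions (left) and the 6882 narrower full-length-only regions (right). Each panel leaves out only the bases of its own kind of region, so the 2 panels are not counted alike. Around broad regions, with narrower full-length-only regions counted, the full-length lists lie above the del-cIDR lists at all distances drawn, by little from 50 to 100 kb. Around narrower regions, with those regions left out, they lie below from 10 kb on. With all full-length-only bases left out (not drawn), replicate 2 was below both del-cIDR lists from 5 kb on around broad regions too.

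A del-cIDR peak lay within 1 kb of 15 broad regions (2.25%), within 10 kb of 196 (29.4%) and within 100 kb of 570 (85.5%), at a median distance of 24413 bp. The rule dropped any region that a del-cIDR peak touched, so part of the low share within 1 kb was set by it. Narrower full-length-only regions had one within 1 kb in 7.28%, within 10 kb in 38.2% and within 100 kb in 82.9%, at a median distance of 17659 bp. A region of all 4 lists lay within 1 kb of 10 broad regions and within 10 kb of 30. Among them was the best ranked region on chromosome 19, although its nearest del-cIDR peak was 11326 bp away. A narrower full-length-only region lay within 1 kb of 235 (35.2%) and within 10 kb of 415 (62.2%). Of the 1869 other merged regions within 10 kb of a broad one, 902 were narrower full-length-only regions and 677 were found in a single full-length list. Another 55 were del-cIDR-only, 127 were found in a single del-cIDR list, 30 in all 4 lists and 78 in other mixtures. These 902 were 13.1% of the narrower full-length-only regions, against 0.723% for the del-cIDR-only set and 4.41% for all 42362 merged regions that were not broad full-length-only ones.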

How the data were processed

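Peak lists of 4 immunoprecipitates were analysed. MACS2, STAR, cutadapt, UMI-tools and the build GRCm39 are named per the submitters' processing notes; their roles, versions and settings, and any control in peak calling, are unknown here. Each list was made from 1 library. The authors deposited for every peak a fold enrichment (a ratio), both p-value and q-value as −log10, and a score, 10 times the −log10 q in whole numbers. Another deposited column, of other kind, gives the summit as bases from the peak start. Lists named wt were taken as full-length and those named KI as del-cIDR, the only other genotype. A peak caller that bridges gaps by fragment or read length sets where a broad peak breaks, and such settings are unknown here.

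All peaks were used, with no filter on low values. Merging, extents, overlaps and distances between edges were computed with Python 3.11.15, numpy 2.4.6, pandas 2.3.3 and scipy 1.17.1. Merging was tested on 3000 simulated regions and recovered 100% of the members with 0 false ones. The flank counts were compared by exact permutation over the 4 lists. The regions, measures and alternatives were chosen with earlier results of these data known. Regions named are the 10 widest, the 10 of best mean rank by −log10 q, the 5 with most peaks, the groups with most regions (7, since 4 tied) and the 3 on each side of the width limit; other regions were named after their values were seen. One of the 10 widest is not reported here. The planned share of regions that overlap a long exon, and the planned gene lists and cell type markers, need an annotation of GRCm39 and were not analysed here.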

Additional observations from a re-analysis of the deposited data

How the results depend on the processing

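The number of regions, 667, went to 1010 with a merged width of 1500 bp or more, to 310 with 3000 bp, to 1492 with peaks within 1 kb joined and to 247 where both full-length lists had to hold a peak of 2000 bp (an alternative added after the data were seen). In the same order the covered length, 2.27 Mb, was 2.87, 1.41, 5.90 and 1.07 Mb, the median width, 2902 bp, was 2352.5, 4027, 3185 and 3860 bp, the mean Jaccard index, 0.759, was 0.716, 0.837, 0.546 and 0.929, and the share with another broad region within 100 kb, 43.6%, was 51.9%, 23.55%, 50.5% and 28.3%. Joining peaks within 100 bp gave 2.67 Mb, a Jaccard index of 0.717, 22.7% with 1 peak per replicate and 32.8% with both ends within 100 bp. Peaks of at least 4-fold enrichment gave 3151 bp, 0.719 and 59.05% with 1 peak per replicate, against 29.99% with all peaks, and a −log10 q of at least 5 gave 33.9%. That share was 6.50% with peaks within 1 kb joined and 65.2% with both lists wide. The share with both ends within 100 bp, 36.7%, was 41.6% at 3000 bp, 21.85% with 1 kb joined and 57.1% with both lists wide. Leaving out each replicate in turn gave 260 to 730 regions, 0.934 to 2.47 Mb, 2875 to 2983 bp, 31.15 to 43.8% with a near neighbour and a flank difference of 682 to 1301.5 summits. Leaving out a del-cIDR replicate gave a Jaccard index of 0.765 to 0.766, 30.1 to 31.8% with 1 peak per replicate and 37.3 to 38.35% with both ends close. With 1 full-length list, ends and Jaccard index have no value, and the share with 1 peak is 100% by construction. The flank difference, full-length minus del-cIDR, was positive in all of these, from 566.5 to 1607.5 summits, and was 250.5 with all full-length-only bases left out. As a replicate block, pairing lists by number, it was 1217.5 with an exact permutation p of 0.5, the smallest that 2 pairs allow. Further settings were equal list lengths, a wide peak in at least 1 full-length list, and del-cIDR peaks counted only from 10% of a region. They moved none of the results judged by replicate spread, counting interval or a factor of 1.5 beyond that limit. The flank difference was judged only by its sign, which held, and by a p under 0.05, which is not possible here. A change in its size could thus not be flagged. The counting interval was a binomial interval over the 667 regions of the same libraries, so it does not measure spread between replicates. For the mean Jaccard index, which is not a share, it was only a rough yardstick. Read depth and input signal are unknown, and their part in the number of wide peaks was not tested.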
